A study of Mus musculus with 2 samples.

Results

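Gas5 and 9 Snhg genes are noncoding genes whose introns hold small nucleolar RNAs (snoRNAs). Their RNA was compared here by gene between KPR- and KPR_restored lung cancer cells of the mouse. The values per gene do not separate spliced transcripts from those that retain introns. The members were Gas5, Snhg1, Snhg3, Snhg4, Snhg5, Snhg6, Snhg8, Snhg10, Snhg12 and Snhg15, taken by gene symbol. They are 10 of the 23183 genes listed for each library, 9 under their own symbol and Snhg15 under its older symbol Gm11974. KPR- cells are an immortalized line grown from lung cancers of mice that carried Runx3 flox/FSF and FlpERT2, together with the alleles K-Ras LSL-G12D/+ and p53 flox/flox and the Tomato* reporter, and that inhaled an adenovirus with Cre (Ad-Cre) and received no tamoxifen. In the FSF allele a Stop cassette between Frt sites silences Runx3, and 4-hydroxytamoxifen (4-OHT) activates FlpERT2 to remove it, which gives KPR_restored cells. The other Runx3 allele is lost through Cre, and all cells share the active K-Ras and the deletion of p53. The labels give the genotype RUNX3 -/- for KPR- and RUNX3 -/+ for KPR_restored, the times 0 h and 16 h in the sample titles, and 1 μM 4-OHT for both, so the labels alone do not name an untreated sample. How many mice or clones stand behind each line is not given in the sources used here.

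mRNA was sequenced in 1 library per condition, so the samples give 2 values per gene, no test of the conditions and no p-value. Values are FPKM, fragments per kilobase of transcript and per M of fragments, which can be compared between genes. The depth was estimated as 21.9 M fragments in KPR- and 22.5 M in KPR_restored (M, 1000000). Differences are log2(FPKM + 0.005) in KPR_restored minus KPR-, a gene was called lower or higher at a difference of 0.5 or more in size, and brackets of 95% (exact Clopper-Pearson limits on estimated fragments) cover counting error between the 2 libraries only. Runx3 was at 0.348 FPKM in the library labelled KPR- and 0.349 in the library labelled KPR_restored, from about 28 and 29 fragments. The 95% interval of its difference was -0.79 to 0.81, so no rise was seen at this low level. Runx3 thus does not check the labels, and its values do not separate the alleles. All directions below are therefore those of the labelled libraries, and Runx3 restoration, 4-OHT and hours in culture cannot be told apart. Of the epithelial markers fixed for lung adenocarcinoma, 7 of 10 had at least 1 FPKM in both libraries (Epcam, Cdh1, Hmga2 and 4 keratins), while Nkx2-1 was at 0.0444 and 0.0216 FPKM and Sftpc and Sftpb were listed at 0. Of 7 fibroblast markers 1 reached 1 FPKM in both libraries (Col1a1), as did 1 of 4 endothelial (Kdr) and 1 of 5 leukocyte markers (Cd68), with 12.2 and 4.21 FPKM of Col1a1, 1.10 and 2.05 FPKM of Kdr and 3.08 and 6.78 FPKM of Cd68 in KPR- and KPR_restored. The summed fibroblast markers were 12.7 and 5.35 FPKM, the endothelial 1.16 and 2.22 FPKM, and the leukocyte 3.08 and 6.83 FPKM. Of the leukocyte genes Lyz2 and Cd3e were listed at 0 in both libraries, and Ptprc and Cd79a were listed at 0 in KPR- and at 0.0089 and 0.040 FPKM in KPR_restored. The part of other cell types in the values of the hosts was not tested.

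snoRNAs are short nuclear RNAs that guide the chemical modification of ribosomal and spliceosomal RNA, with box C/D snoRNAs guiding 2'-O-methylation and box H/ACA snoRNAs guiding pseudouridylation. In mammals most are cut out of the introns of host genes, and the exons that remain are joined into a host transcript. In the Gas5 and Snhg hosts this transcript encodes no known conserved protein. Several such transcripts carry a pyrimidine-rich start of the kind found in mRNAs of ribosomal proteins (TOP mRNAs), are loaded on ribosomes, and are degraded by nonsense-mediated decay (NMD) because translation stops far ahead of their last exon junction. Gas5 was named for its build-up in growth-arrested cells.

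The bases around annotated starts are shown because a pyrimidine run at the start is the shared feature of TOP RNAs. RefSeq (GRCm38.p6) promoter sequences were matched for 8 members, and each line holds the 20 bases before and the 20 bases from the annotated start, with the longest run of C and T in capitals.
Gas5, chr1:161035146-161035185, plus strand: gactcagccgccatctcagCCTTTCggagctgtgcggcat
Snhg1, chr19:8723467-8723506, plus strand: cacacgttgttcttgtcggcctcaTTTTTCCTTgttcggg
Snhg3, chr4:132353667-132353706, minus strand: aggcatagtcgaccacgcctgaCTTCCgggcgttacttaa
Snhg5, chr9:88522878-88522917, minus strand: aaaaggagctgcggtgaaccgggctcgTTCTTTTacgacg
Snhg8, chr3:123508317-123508356, minus strand: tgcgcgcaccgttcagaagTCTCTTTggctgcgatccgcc
Snhg10, chr12:105032260-105032299, minus strand: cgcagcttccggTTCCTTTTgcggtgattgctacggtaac
Snhg12, chr4:132308658-132308697, plus strand: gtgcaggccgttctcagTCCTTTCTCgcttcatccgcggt
Snhg15, chr11:6528741-6528780, minus strand: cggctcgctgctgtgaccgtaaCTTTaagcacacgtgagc

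Snhg1 and Snhg12 had the longest runs, of 9 bases, and a run at least as long was found in 10.7% of the 32851 promoters of the table in the same window. Snhg10 followed with 8 bases (16.05% of promoters), and Snhg5 and Snhg8 each had 7 (24.3%). The runs of Gas5 (6 bases, 37.5%), Snhg3 (5 bases, 57.5%) and Snhg15 (4 bases, 78.6%) were common lengths. The median run was 7 bases over the 8 members and 5 bases over all promoters. In Gas5, Snhg8 and Snhg12 the run spanned the annotated start, in Snhg1, Snhg3, Snhg5 and Snhg15 it lay downstream of it, and in Snhg10 it ended just upstream. For Gas5, Snhg1, Snhg5, Snhg8 and Snhg10 this start was not that of the spliced transcript described below. The 2 starts were furthest apart in Snhg8, at bases 123508336 and 123508404. The whole windows of 300 bases were also searched on both strands for 4 motifs. The RUNX core TGTGGT was found for 1 member (Snhg8) against 16.8% of all promoters, the cyclic AMP response element TGACGTCA for 2 (Gas5 and Snhg15) against 1.79%, the E-box CACGTG for 1 (Snhg15) against 7.15%, and the ATF4 site TGATGCAA for 0 against 0.895%.

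The spliced host transcripts were short, from 400 bases for Snhg6 to 1190 for Snhg4, with 2 exons in Snhg10 and 12 in Gas5. The reading frame that opens at the first ATG had between 1 and 62 codons, and the longest frame of any member had 66 codons (Snhg5). In 8 of the 10 transcripts at least 1 exon junction lay more than 50 bases beyond the stop of the first frame, the arrangement known to mark an RNA for NMD. Gas5 had 7 such junctions, Snhg1 had 5, Snhg5 had 4, Snhg12 and Snhg15 had 3 each, Snhg8 had 2, and Snhg6 and Snhg10 had 1 each. Snhg3 and Snhg4 had 0. The share of other noncoding transcripts with such a junction was not computed, so the count is not shown to be particular to these hosts. The first frames of 3 members are printed from the spliced GENCODE M21 transcripts, with the start and stop codons in capitals, because they range from the most junctions beyond the stop (Gas5) through the shortest frame of the lower genes (Snhg5) to none (Snhg3).
Gas5, first frame: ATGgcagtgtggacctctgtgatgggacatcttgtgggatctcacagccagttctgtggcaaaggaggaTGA
Snhg5, first frame: ATGaccaagTGA
Snhg3, first frame: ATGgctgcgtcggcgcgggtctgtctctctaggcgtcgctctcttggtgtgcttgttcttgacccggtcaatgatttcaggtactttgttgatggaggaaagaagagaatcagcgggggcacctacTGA

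**Figure D1:**
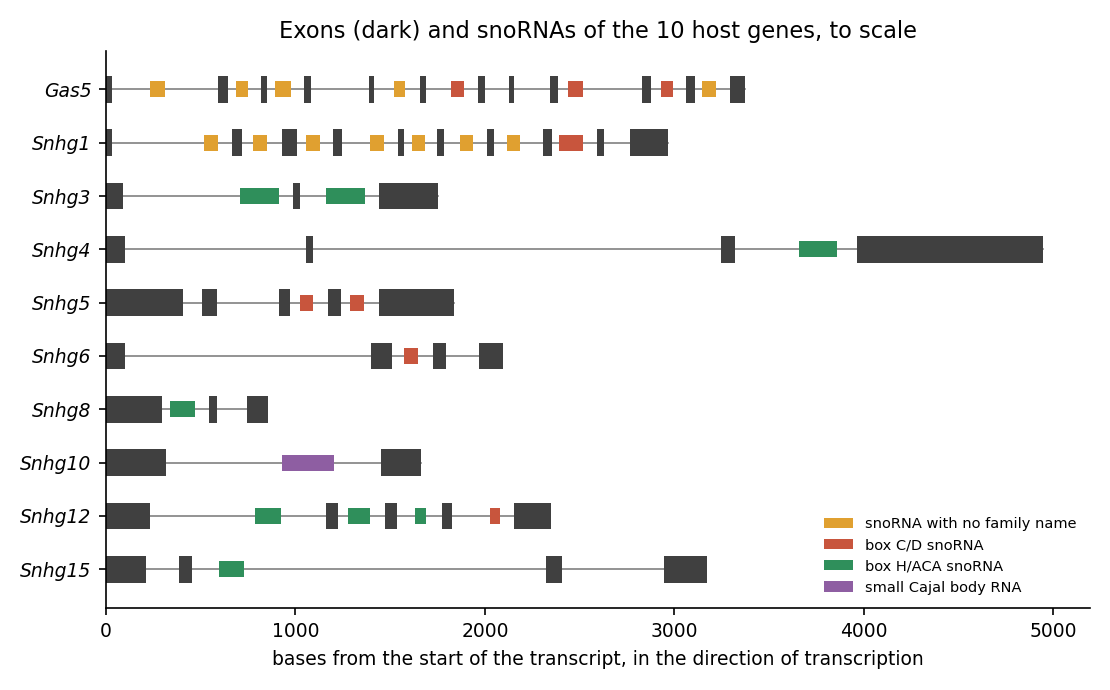
Exons (dark blocks) and annotated snoRNAs (coloured blocks) of 1 spliced transcript of each of the 10 host genes, drawn to scale against the distance in bases from the transcript's start. All 29 snoRNAs lie in introns, with 8 each in Gas5 and Snhg1.

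RefSeq places 29 snoRNAs inside the 10 hosts, of 56 to 275 bases, and each lay in an intron of the spliced transcript. Gas5 (chr1:161034422-161038539) and Snhg1 (chr19:8723475-8726443) hold 8 each, Snhg12 (chr4:132308623-132311024) holds 4, and Snhg3 (chr4:132348014-132353686) and Snhg5 (chr9:88521050-88522929) hold 2 each. Snhg4, Snhg6 (chr1:9941959-9944118), Snhg8 (chr3:123507552-123508404), Snhg10 (chr12:105030617-105032279) and Snhg15 (chr11:6525591-6528760) hold 1 each. By family name 8 are box C/D, 8 are box H/ACA and 1 is a small Cajal body RNA (Scarna13 in Snhg10), and 12 had no family name in RefSeq or GENCODE.

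Snhg3, Snhg4, Snhg5 and Snhg10 were lower by 0.5 or more in KPR_restored, and 0 of the 10 hosts were higher by as much. The remaining 6 members lay between the thresholds, and 8 of 10 differences were below 0. Of all 23183 genes, 12.9% were lower and 13.8% were higher by the same rule, and of the 11231 genes whose mean FPKM was 1 or more (as it was for every host), 9.29% were lower and 12.1% higher. Among the 218 noncoding genes (RefSeq lncRNA) of that level the shares were 24.3% lower and 19.7% higher, so calls were more frequent among noncoding genes in both directions. The median difference of the 10 hosts was -0.24, against 0.0086 for genes whose mean FPKM was 1 or more (quartiles -0.23 and 0.27) and -0.074 for the noncoding genes (quartiles -0.50 and 0.31). In bulk RNA, fewer cells that express a gene and less RNA per cell cannot be told apart.

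**Figure D2:**
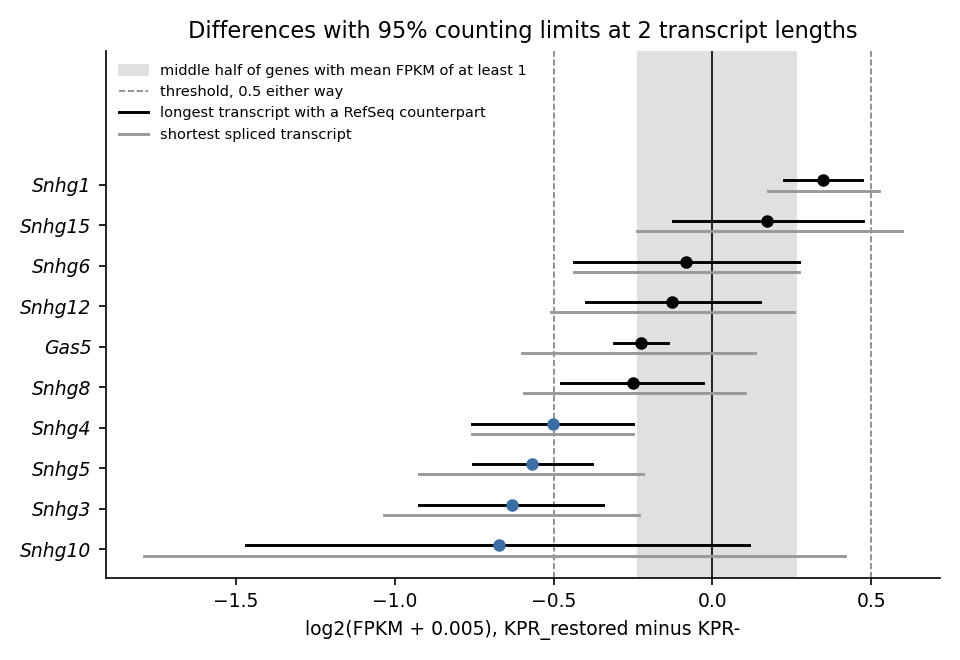
Log2 differences of the 10 hosts (points, blue where lower by 0.5 or more) with 95% counting limits from the longest transcript with a RefSeq counterpart (black) and from the shortest spliced transcript (grey), beside the quartile range of genes whose mean FPKM was 1 or more (shaded). 4 points lie at or beyond the lower threshold, and the limits of Snhg10 include 0.

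Snhg3, the host of the U17 snoRNAs Snora73a and Snora73b, was at 51.5 FPKM in KPR- and 33.3 FPKM in KPR_restored. The difference was -0.63, with a counting interval of -0.92 to -0.34 from about 252 and 167 fragments. The shortest spliced transcript gave an interval of -1.03 to -0.23, and both intervals lay below 0. Only 5.57% of the genes whose mean FPKM was 1 or more had a difference as low or lower. The gene overlaps Rcc1 on the same strand, which is described with the neighbours.

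Snhg5, the host of Snord50a and Snord50b, was at 33.4 FPKM in KPR- and 22.6 FPKM in KPR_restored. The difference was -0.57, with a counting interval of -0.75 to -0.38 from about 578 and 401 fragments. It passed from rank 4 among the 10 hosts in KPR- to rank 8 in KPR_restored, the widest move in the order. Neighbours from rank 4 to rank 8 had overlapping counting limits in both libraries, so the ranks among them are uncertain.

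Snhg4, the host of Snora74a, was at 14.5 FPKM in KPR- and 10.3 FPKM in KPR_restored. The difference was -0.50, just past the threshold, and with pseudocounts of 0.1 and 1 it was -0.497 and -0.46 and no longer called. The counting interval was -0.76 to -0.25 from about 310 and 225 fragments.

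Snhg10, the host of Scarna13, was at 5.38 FPKM in KPR- and 3.37 FPKM in KPR_restored, the lowest level of the hosts in both libraries. The difference of -0.67 was the furthest from 0 of the 10, but it rested on about 37 and 24 fragments. Its counting interval of -1.47 to 0.12 included 0, so a difference was not detectable at this depth.

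Snhg1, the host of Snord22, was at 112 FPKM in KPR- and 143 FPKM in KPR_restored, the highest level in both libraries. The difference was 0.35, under the threshold, with a counting interval of 0.23 to 0.47 from about 963 and 1260 fragments. It was the only host whose interval lay above 0, also with the shortest spliced transcript (0.18 to 0.52). Snhg1 made up 30.01% of the summed FPKM of the 10 hosts in KPR- and 40.1% in KPR_restored. The sum was 375 FPKM in KPR- and 357 in KPR_restored, a log2 ratio of -0.069, and the sum of the other 9 hosts was 262 and 214 FPKM, a log2 ratio of -0.29.

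Gas5 was at 46.7 FPKM in KPR- and 40.0 FPKM in KPR_restored, a difference of -0.23. With the longest RefSeq-matched transcript, which retains introns and has 2556 bases, the interval was -0.31 to -0.14, and with the shortest spliced transcript of 346 bases it was -0.60 to 0.13 and included 0. Snhg8, the host of Snora24, was at 29.5 and 24.8 FPKM, a difference of -0.25. Its interval was -0.48 to -0.031, and -0.59 to 0.10 with the shortest spliced transcript. For both genes, whether the interval includes 0 thus depends on which transcript the fragments came from, which gene values do not show.

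The intervals of the remaining 3 hosts included 0. Snhg6, the host of Snord87, was at 33.4 FPKM in KPR- and 31.6 FPKM in KPR_restored, a difference of -0.08 (-0.44 to 0.27). Snhg12 was at 26.5 and 24.3 FPKM, a difference of -0.13 (-0.40 to 0.15). Snhg15, the host of Snora9, was at 21.2 and 23.9 FPKM, a difference of 0.17 (-0.12 to 0.47). With Snhg1 it was the other of the 2 hosts with a value above 0.

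**Figure D3:**
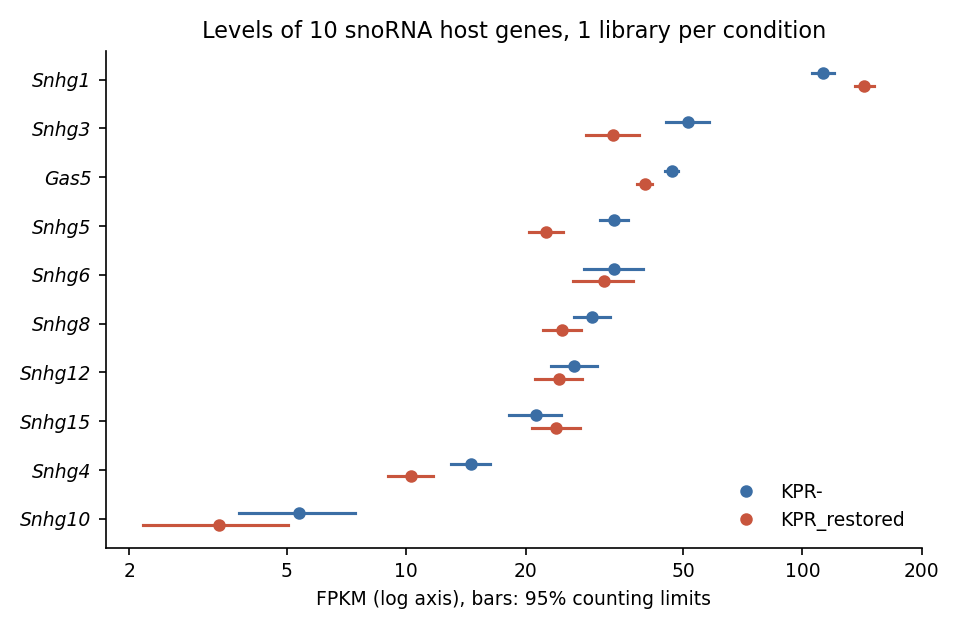
FPKM (log axis) of the 10 hosts in the KPR- library (blue) and the KPR_restored library (red), with 1 library per condition. Bars are 95% Poisson limits of the fragments estimated with the longest transcript with a RefSeq counterpart. Snhg1 lies highest in both libraries (112 and 143 FPKM) and Snhg10 lowest (5.38 and 3.37 FPKM).

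In KPR- the order of levels ran from Snhg1 over Snhg3, Gas5, Snhg5, Snhg6, Snhg8, Snhg12, Snhg15 and Snhg4 to Snhg10. By the exact Poisson limits of single levels, Snhg1 (105 to 120 FPKM) stood apart from Snhg3 (45.3 to 58.2 FPKM), whose limits overlapped those of Gas5 (44.9 to 48.6 FPKM). Gas5 stood apart from Snhg5 (30.7 to 36.3 FPKM), and each neighbour from Snhg5 down to Snhg15 overlapped the next. These limits use the longest transcript with a RefSeq counterpart, with about 2392 fragments for Gas5 and 578 for Snhg5. Their shortest spliced transcripts would give about 136 and 166 fragments and wider limits, so this separation depends on the transcript. Snhg4 (12.96 to 16.2 FPKM) and Snhg10 (3.79 to 7.41 FPKM) each stood apart from the one above. In KPR_restored Gas5 (38.3 to 41.7 FPKM) came after Snhg1 and was followed by Snhg3 (28.4 to 38.7 FPKM), with limits that overlapped. Every neighbour from Gas5 down to Snhg5 overlapped the next there, and Snhg4 and Snhg10 again stood apart. Snhg1 was more highly expressed than 94.3% of the genes whose mean FPKM was 1 or more, and Snhg10 than 19.4%.

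The junction counts can be set beside these differences as a description. Counted were junctions more than 50 bases beyond the first stop. The 4 lower hosts had 0 (Snhg3, Snhg4), 4 (Snhg5) and 1 (Snhg10). The last junction of Snhg4 lay beyond its stop but within 50 bases, so it was not counted. The 2 hosts with values above 0 had 5 (Snhg1) and 3 (Snhg15). The hosts below 0 but within the threshold had 7 (Gas5, difference -0.23), 3 (Snhg12, -0.13), 2 (Snhg8, -0.25) and 1 (Snhg6, -0.08). The pyrimidine runs of the lower hosts were 5, 7 and 8 bases in Snhg3, Snhg5 and Snhg10, and those of Snhg1 and Snhg15 were 9 and 4 bases. Those of Gas5, Snhg8 and Snhg12 were 6, 7 and 9 bases. Junction counts and lengths of runs thus both overlapped between hosts that were lower and hosts that were not.

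Neighbours were looked up for 9 hosts (not Snhg4), and 4 of these start within 1000 bases of a protein-coding gene. Slc3a2, the heavy chain of amino acid transporters at the cell surface, starts 106 bases from Snhg1 on the other strand and rose from 86.0 FPKM in KPR- to 185 FPKM in KPR_restored, a difference of 1.10. Snhg1 had a difference of 0.35, in the same direction. Rcc1, the exchange factor for the GTPase Ran, starts 81 bases from Snhg3 on the same strand and overlaps it by 5592 bases. It was at 41.3 FPKM in KPR- and 41.8 FPKM in KPR_restored, a difference of 0.017, beside -0.63 for Snhg3. Fragments of the shared stretch could be given to either gene, so the split between Snhg3 and Rcc1 is uncertain. Glrx5, a mitochondrial glutaredoxin, starts 409 bases from Snhg10 on the other strand and had a difference of -0.13 (67.6 and 61.7 FPKM), beside -0.67 for Snhg10. Zbtb37, a zinc finger gene, overlaps the annotated 5' end of Gas5 on the other strand by 428 bases and had a difference of 0.084 (1.34 and 1.43 FPKM). Snhg12 and Snhg3 lie 36989 bases apart on chromosome 4 on opposite strands, with differences of -0.13 and -0.63. Snhg6 overlaps Mcmdc2 on the other strand by 127 bases, a gene at 0.136 and 0.0947 FPKM. The neighbours were chosen by position after the values of the hosts were known.

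**Figure D4:**
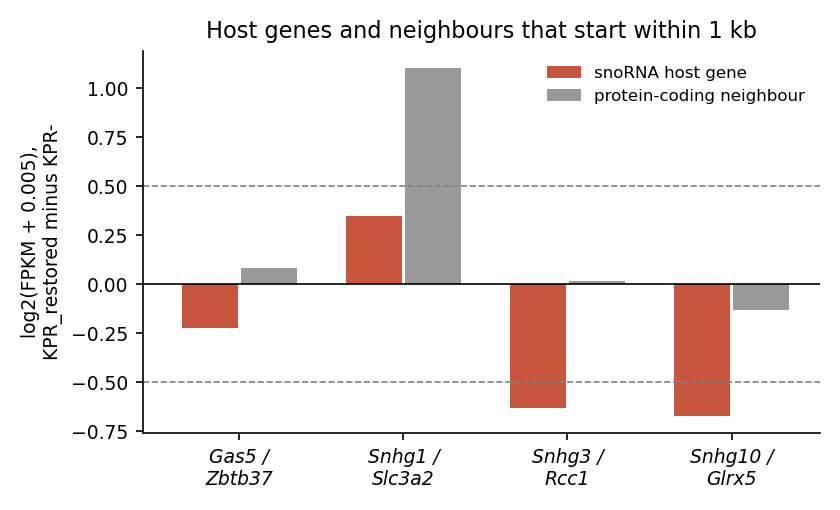
Log2 differences (KPR_restored minus KPR-) of 4 hosts (red bars) and of the protein-coding gene that starts within 1 kb of each (grey bars), with the threshold of 0.5 dashed. Slc3a2 passes the threshold upward beside Snhg1, while Rcc1 and Glrx5 stay near 0 beside Snhg3 and Snhg10.

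Of the 29 snoRNAs in the hosts, 10 had an entry of their own in the files, 6 of these were listed at 0 in both libraries, and 4 had a value above 0 in a library. These 4 values are given as listed only, since the RNAs are near or under the mean fragment length of 214 bases, where FPKM is unstable, and poly(A) selection is not made for RNAs without a tail. The first 3 are shown with the part of the box motif that was found near the 3' end in capitals (box D as CTGA, box ACA as ACA), from GENCODE M21 on GRCm38. No box C of the form TGATGA was found in Snord22.
Snord22 in Snhg1, chr19:8725866-8725991, plus strand: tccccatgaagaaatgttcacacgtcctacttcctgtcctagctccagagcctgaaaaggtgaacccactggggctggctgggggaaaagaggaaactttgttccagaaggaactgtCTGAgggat
Snora16a in Snhg12, chr4:132309464-132309600, plus strand: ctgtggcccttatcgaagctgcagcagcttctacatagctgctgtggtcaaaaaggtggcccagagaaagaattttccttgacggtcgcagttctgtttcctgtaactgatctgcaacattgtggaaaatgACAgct
Scarna13 in Snhg10, chr12:105031075-105031349, minus strand: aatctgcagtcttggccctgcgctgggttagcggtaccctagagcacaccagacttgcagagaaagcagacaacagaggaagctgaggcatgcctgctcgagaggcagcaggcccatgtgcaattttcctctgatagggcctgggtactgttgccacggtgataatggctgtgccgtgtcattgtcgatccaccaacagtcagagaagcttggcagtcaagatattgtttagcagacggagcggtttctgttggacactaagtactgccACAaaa

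Snord22 was listed at 118 FPKM in KPR- and 85.8 FPKM in KPR_restored, while its host Snhg1 was at 112 and 143 FPKM. Scarna13 was listed at 2.14 and 0.551 FPKM, with its host Snhg10 at 5.38 and 3.37 FPKM. Snora16a was listed at 7.98 FPKM in KPR- and at 0 in KPR_restored, with its host Snhg12 at 26.5 and 24.3 FPKM. Snora74a in Snhg4 was listed at 1.45 and 1.52 FPKM. The 6 listed at 0 in both libraries were Snord47 in Gas5, Snord87 in Snhg6, Snora24 in Snhg8, and Snora44, Snora61 and Snord99 in Snhg12.

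12 further noncoding snoRNA hosts were compared as the genes most like the 10. Of these 5 were lower and 1 was higher by 0.5 or more, with a median of -0.37, and of the 8 with a mean FPKM of at least 1, 2 were lower and 1 was higher, with a median of -0.24. With a pseudocount of 1 only 1 of the 12 was lower and the median was -0.21, and with 0.1 these were 3 and -0.30. Snhg9, a short host of an H/ACA snoRNA, was at 27.1 FPKM in KPR- and 8.16 FPKM in KPR_restored, a difference of -1.73 for which no fragments could be estimated. Snhg18 was at 1.25 and 0.629 FPKM, a difference of -0.99 from about 35 and 18 fragments (-1.91 to -0.14), and with a pseudocount of 1 it was -0.47 and no longer called. Zfas1, a host of box C/D snoRNAs, rose from 64.8 to 94.95 FPKM, a difference of 0.55 (0.42 to 0.69). Epb41l4aos was at 22.5 and 29.9 FPKM, a difference of 0.41 (0.040 to 0.78). The noncoding hosts beyond the 10 thus also held values in both directions. Of their 12 differences 10 were below 0, as were 8 of the 10 members, so values mostly below 0 were not particular to the members.

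Of 40 protein-coding hosts, whose introns also hold snoRNAs but whose mRNAs are translated, 0 were lower and 0 were higher by 0.5 or more, with a median of 0.048 and a range of -0.47 to 0.33. The furthest below 0 were Hspa8, a constitutive chaperone (2068 and 1489 FPKM, difference -0.47), and Ncl, which encodes nucleolin (283 and 207 FPKM, difference -0.45). The furthest above 0 were Tpt1 (1193 and 1498 FPKM, difference 0.33) and the ribosomal protein gene Rps12 (1869 and 2223 FPKM, difference 0.25). Of 42 TOP mRNAs 0 were lower and 0 higher, with a median of 0.059. Fau (1458 and 1844 FPKM, difference 0.34), Tpt1, Hnrnpa1 (346 and 274 FPKM, difference -0.34) and Vim (1777 and 1464 FPKM, difference -0.28) marked its ends. Some genes, such as Tpt1 and many ribosomal protein genes, stand on both lists.

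**Figure D5:**
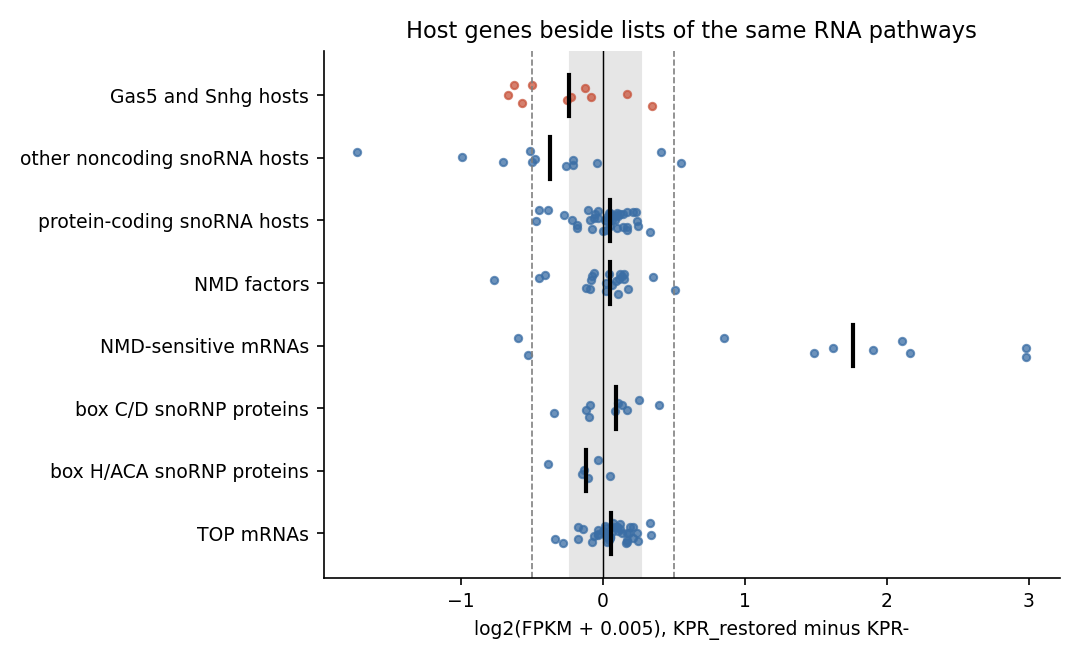
Log2 differences of the 10 hosts (red) and of the genes of 7 lists of related RNA pathways (blue), each point a gene, with list medians as black bars, the quartile range of genes whose mean FPKM was 1 or more shaded and the threshold of 0.5 dashed. The 40 protein-coding hosts and 42 TOP mRNAs lie within the thresholds, while 4 of the 10 hosts lie at or below the lower one.

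The NMD machinery was described by 22 factors, of which 1 was lower and 1 was higher by 0.5 or more, with a median of 0.053. Nbas, a factor of NMD and of membrane transport at the endoplasmic reticulum, was lower (6.42 and 3.77 FPKM, difference -0.77, interval -0.92 to -0.62). Pnrc2, which links decay factors to decapping, was higher (20.3 and 28.7 FPKM, difference 0.50, interval 0.37 to 0.64), a call lost when the libraries were scaled otherwise or with a pseudocount of 1. Dhx34, a helicase of the pathway, was at 8.71 and 11.1 FPKM (difference 0.35), and Gspt1, a translation termination factor, was at 39.5 and 29.7 FPKM (difference -0.41).

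10 mRNAs known as NMD-sensitive from other work, mainly genes of the amino acid and stress response, were read with the hosts. Of these 8 were higher and 2 were lower by 0.5 or more, with a median of 1.76. The list was chosen with earlier results of these data known. A stress response and a change in NMD cannot be told apart by these values, and neither was tested. Atf3, a stress-induced transcription factor, rose from 2.69 to 21.3 FPKM (difference 2.98), and Slc7a11, a cystine transporter, rose from 3.14 to 24.9 FPKM (difference 2.98). Tbl2 fell from 25.1 to 16.6 FPKM (difference -0.60) and Gadd45b from 32.9 to 22.8 FPKM (difference -0.53). Slc7a11, which pairs with the product of Slc3a2 at the cell surface, and Slc3a2 were both higher in KPR_restored.

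The proteins that build snoRNAs into particles were within the thresholds. Of 10 genes for box C/D particles 0 were lower and 0 higher, with a median of 0.094. Fbl, the methyltransferase fibrillarin, was at 234 and 185 FPKM (difference -0.34), Ruvbl1 at 104 and 95.3 FPKM (difference -0.12), Znhit6 at 14.1 and 16.8 FPKM (difference 0.25) and Nufip1 at 6.52 and 8.59 FPKM (difference 0.40). Of 6 genes for box H/ACA particles 0 were lower and 0 higher, with a median of -0.12. Dkc1, the pseudouridine synthase dyskerin, was at 61.8 and 47.4 FPKM (difference -0.38), Nhp2 at 171 and 155 FPKM (difference -0.14), Naf1 at 16.2 and 15.9 FPKM (difference -0.03) and Gar1 at 58.6 and 60.8 FPKM (difference 0.05). The enzymes of both particle types, Fbl and Dkc1, were the furthest below 0 on their lists, with counting intervals of -0.40 to -0.28 and -0.46 to -0.31.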

How the data were processed

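Poly(A) RNA of 1 KPR- and 1 KPR_restored library was sequenced, and the authors trimmed the reads, mapped them using TopHat and deposited FPKM values estimated with Cufflinks. The submitters' processing notes name TopHat and mm10. Tool versions and the annotation are not given in the sources used here. The study's methods also name EdgeR for read counts, which were not used here.

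The members and lists were chosen with earlier results of these data known. All 10 members are described, and in each list the 2 largest rises and 2 largest falls of log2(FPKM + 1) are named, with all snoRNAs above 0 in a library. Slc3a2, Rcc1, Glrx5, Zbtb37 and Mcmdc2 were named by position after the values were seen. On the scale of log2(FPKM + 0.005) the difference of a low gene depends on the pseudocount, and on that of log2(FPKM + 1) it is understated.

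Depth and mean fragment length were fitted to the steps of low FPKM values of 577 (KPR-) and 589 (KPR_restored) genes with 1 transcript length. Of these 80.6% and 81.7% lay within 0.1 of a whole fragment, where 20% would by chance. On simulated libraries of 19 and 25 M fragments (M, 1000000) the fit returned 19 M and 25 M. Fragments were estimated with the longest transcript with a RefSeq counterpart in GENCODE M21 (GRCm38, the assembly of mm10), and where the effective length was under 100 bases none were estimated. Intervals and limits cover counting error only. For reading frames, a transcript without retained introns was taken, with a RefSeq counterpart where there was one, otherwise that with the most exons. The analysis was run in Python 3.11.15 with scipy 1.17.1 for limits, pandas 2.3.3 and numpy 2.4.6 for tables, and matplotlib 3.10.9 for plots.

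Alternatives were pseudocounts of 1 and 0.1, scaling to 1 FPKM total (TPM) or upper quartile, centring on the median gene, filters on mean FPKM of 1 and 5, a threshold of 1, and the shortest spliced transcript. The longest of all transcripts was added after the data were seen. No promoter sequence was matched for Snhg6, and for Snhg4 the transcript sequence was used only to find its reading frames and is not shown.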

Additional observations from a re-analysis of the deposited data

How the results depend on the processing

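Of the 198 values recomputed under an alternative 188 stayed close to the value given and 10 moved further. Close meant within the host's counting interval for a difference, within 0.26 for a median and within 1.5 times for a count. An interval was close if it still lay below, above or across 0 as before, whatever its width. Direction was not informative here, because a pseudocount keeps the sign of a difference and the scalings shifted all values by little. Some of the 198 values could not move. Every host passed the filter on mean FPKM of 1, and Snhg4 has 1 transcript. For Gas5, Snhg8 and Snhg10 the longest transcript was the one already used, as was the shortest for Snhg6. The 188 thus include values fixed in advance. The count of hosts that were lower by the threshold went from 4 to 0 with a threshold of 1, since the lowest difference was -0.67, and that of hosts that were higher stayed at 0. With pseudocounts of 1 and of 0.1 the count was 3, without Snhg4, which was lower by 0.5 only with 0.005 among the 3 pseudocounts and stayed so under the 3 scalings, and over hosts with a mean FPKM of at least 5 it was 3, without Snhg10. Of the lists, the count of lower noncoding hosts beyond the 10 went from 5 to 1 with a pseudocount of 1 and to 3 with 0.1, which shrink differences of low genes, and that of higher NMD factors went from 1 to 0 with a pseudocount of 1, with TPM scaling, with the upper quartile and with centring. With the upper quartile 1 protein-coding host was lower. These scalings shifted all differences by -0.0064, -0.034 and -0.0086. The counting intervals of Gas5 and Snhg8 included 0 with the shortest spliced transcript. No paired analysis was possible because each condition has 1 library, and for the same reason no library could be left out. The half-width of the counting intervals had a median of 0.26 over the hosts with the longest transcript with a RefSeq counterpart. Smaller differences were thus not detectable at this depth for a typical host. With the shortest spliced transcript the intervals were wider for every host but Snhg4 and Snhg6, so the limit is then larger.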
